A study of Homo sapiens with 9 samples.

Results

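The messenger RNAs of 10 genes of polyamine synthesis and catabolism were followed in HaCaT cells, an immortalized human keratinocyte line, with and without 2 ligands of the epidermal growth factor receptor (EGFR). The genes were ODC1, AMD1, SRM and SMS of the synthesis route, SAT1, SMOX and PAOX of the catabolic route, and OAZ1, OAZ2 and AZIN1, which control the first enzyme. They were chosen by function, with earlier results of these data known, and matched by gene symbol. They make up 10 of the 16199 genes listed in at least 1 library. All 10 were listed in every one of the 9 libraries and passed the filter on low counts, which kept 12394 genes for testing. Wild-type cells were sequenced in 3 groups of 3 libraries each. The untreated cells were kept in serum-free medium. The second group received EGF at 10 nM and the third group received bleogen pB1 at 1 µM, each for 24 h, also in serum-free medium and after the cells had reached confluence. Bleogen pB1 is a cystine-rich miniprotein from the cactus Pereskia bleo that binds EGFR. The 2 ligands were given at different concentrations, so a difference between them is a difference between these doses.

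Polyamines are small, positively charged molecules that bind RNA and are needed for cell growth. Ornithine decarboxylase (ODC1) makes putrescine from ornithine and is the rate-limiting step. S-adenosylmethionine decarboxylase (AMD1) supplies the aminopropyl donor, with which spermidine synthase (SRM) converts putrescine to spermidine and spermine synthase (SMS) converts spermidine to spermine. In the reverse direction, spermidine/spermine acetyltransferase (SAT1) adds an acetyl group, polyamine oxidase (PAOX) oxidizes the acetylated forms, and spermine oxidase (SMOX) converts spermine directly to spermidine. The antizymes OAZ1 and OAZ2 bind ODC1 protein and send it to the proteasome, and the antizyme inhibitor AZIN1 binds antizyme in its place. In the epidermis, ODC1 is well known as a growth-induced gene.

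Several of these genes are also controlled after transcription, which a count of mRNA does not measure. For the antizymes this control is written in the sequence, and it is shown here because the mRNA levels below carry no information about it. Their coding sequence holds a stop codon in the first reading frame, and full-length antizyme is made only when the ribosome shifts by 1 base at that codon, which polyamines stimulate. The 45 bases around the site were read from GRCh38, with the stop codon in capitals. The OAZ1 site is at chr19:2271425-2271469 on the plus strand and the OAZ2 site at chr15:64691489-64691533 on the minus strand, each within the span of its gene.
OAZ1: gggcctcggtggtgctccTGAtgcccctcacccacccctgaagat
OAZ2: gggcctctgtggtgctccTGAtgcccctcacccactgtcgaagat
Both sites were located by searching the span of each gene for CTCCTGATG, which was found once in each. The stop codon and the letters that flank it directly are therefore the same in both genes by the search itself.

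ODC1, SRM and SAT1 are shown with the 250 bases before their start of transcription (RefSeq, GRCh38.p14), since these windows were searched for 2 short promoter motifs. SMOX is also among the main results below but had no window. ODC1 lies on chromosome 2 (10439968 to 10448327, minus strand), SRM on chromosome 1 (11054584 to 11060020, minus strand) and SAT1 on the X chromosome (23783173 to 23786210, plus strand), in GENCODE release 44. The windows are chr2:10448328-10448577 for ODC1, chr1:11060019-11060268 for SRM and chrX:23782923-23783172 for SAT1, each written on the strand of its gene, 5′ to 3′. Capitals mark the E-box CACGTG, the site read by MYC and related factors.
ODC1: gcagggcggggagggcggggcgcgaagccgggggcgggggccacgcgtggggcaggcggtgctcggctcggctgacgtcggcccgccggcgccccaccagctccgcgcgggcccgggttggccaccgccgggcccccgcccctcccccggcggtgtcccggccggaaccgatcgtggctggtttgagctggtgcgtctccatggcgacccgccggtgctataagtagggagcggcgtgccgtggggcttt
SRM: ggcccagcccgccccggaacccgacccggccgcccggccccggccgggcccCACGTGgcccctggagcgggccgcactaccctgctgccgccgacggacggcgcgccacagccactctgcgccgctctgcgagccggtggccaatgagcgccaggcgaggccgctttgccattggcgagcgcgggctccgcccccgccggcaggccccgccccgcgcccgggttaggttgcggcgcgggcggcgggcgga
SAT1: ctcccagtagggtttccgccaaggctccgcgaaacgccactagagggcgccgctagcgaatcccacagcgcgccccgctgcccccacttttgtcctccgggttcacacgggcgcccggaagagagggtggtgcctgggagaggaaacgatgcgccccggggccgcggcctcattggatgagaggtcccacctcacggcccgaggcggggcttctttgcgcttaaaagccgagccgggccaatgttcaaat
Of the 7 genes with a window, SRM alone held an E-box, 199 to 194 bases before the start, and none held the cyclic AMP response element TGACGTCA. Both motifs were searched as exact matches on both strands and each reads the same on either. Variant forms and sites outside these 250 bases were not searched, so a gene without a match may still hold such a site. Among all 27305 windows of this length, 6.49% held the E-box and 1.77% the response element, and among windows of tested genes the shares were 8.76% and 2.91%. G and C made up 78.8% of the ODC1 window, 82.0% of the SRM window and 66.4% of the SAT1 window, against a median of 58.0% over all windows. SMOX, PAOX and AZIN1 had no window in the table used. A motif match is a description of the sequence and was not tested for binding.

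The libraries held between 20288417 and 21320994 expected counts each (estimated reads per gene), and 3 counts, the limit that a count of 0 allows, corresponded to 0.141 to 0.148 CPM (expected counts scaled to the library's size) for counting error only. The 10 keratinocyte markers were listed, among them KRT5 and KRT14, and their summed level was 6023 to 6593 FPKM (fragments scaled to gene length and library size) in untreated cells, 5978 to 6964 with bleogen pB1 and 5294 to 5454 with EGF. The 6 fibroblast, 5 endothelial and 5 of 6 melanocyte markers were under 1 FPKM in every library, with TYR at 0, and the other melanocyte marker, MITF, was at 0.87 to 1.69 FPKM. Of the 5 immune markers only CD68, a lysosomal protein, exceeded 1 FPKM, with 5.74 to 11.3 and summed levels of 6.58 to 6.99 untreated, 5.87 to 6.63 with bleogen pB1 and 10.3 to 11.4 with EGF. Replicates differed by more than counting noise, most between replicates 1 and 2 of EGF and of bleogen pB1 (chi-square per degree of freedom of 19.4 and 19.6, against 3.70 to 7.11 among untreated libraries). The labels do not say whether replicates were separate cultures, so p-values measure the spread between these samples, which may be technical. AMD1 has 5 named pseudogenes in GENCODE, SRM 3, and SMS and OAZ1 1 each, and whether reads were shared with these copies is not stated.

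Levels between genes were compared per length, as the deposited FPKM. In untreated cells OAZ1 stood far above the other members at 356 ± 21.5 FPKM (SD, n = 3), which was 50.5% of the summed FPKM of the 10 genes. The synthases SMS (90.8 ± 2.16) and SRM (60.4 ± 2.88) followed, then AZIN1 (52.2 ± 1.67) and ODC1 (42.3 ± 1.53). SAT1 was at 40.5 ± 1.53 FPKM and overlapped ODC1. AMD1 at 28.1 ± 1.37 and OAZ2 at 26.1 ± 1.22 FPKM overlapped each other, so these pairs of neighbours did not differ beyond their spread. The oxidases were lowest, with SMOX at 7.42 ± 0.583 FPKM and PAOX at 0.720 ± 0.0557 FPKM, where only 11 to 32 counts per library stood behind a value. By mean FPKM over all libraries OAZ1 was at percentile 98.9 of the listed genes and ODC1 at 91.5, while PAOX was the lowest member.

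With EGF the order of levels was different. SRM, which was below SMS in untreated cells, came directly after OAZ1 at 124 ± 13.4 FPKM and its libraries overlapped those of SMS at 109 ± 13.1 FPKM. ODC1 was at 76.5 ± 21.6 FPKM and overlapped both SMS above it and AZIN1 below it. SAT1, which matched ODC1 in untreated cells, was at 23.4 ± 5.57 FPKM and overlapped OAZ2 at 20.1 ± 0.731 FPKM. With bleogen pB1 the order was that of the untreated cells except for the places of ODC1 and SAT1. ODC1 (56.0 ± 8.34) preceded AZIN1 (54.3 ± 4.30), which it overlapped. AMD1 (34.8 ± 2.57) and OAZ2 (28.4 ± 0.506) preceded SAT1 (26.2 ± 4.18), and the libraries of OAZ2 and SAT1 overlapped. These levels are descriptions with no test.

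**Figure D1:**
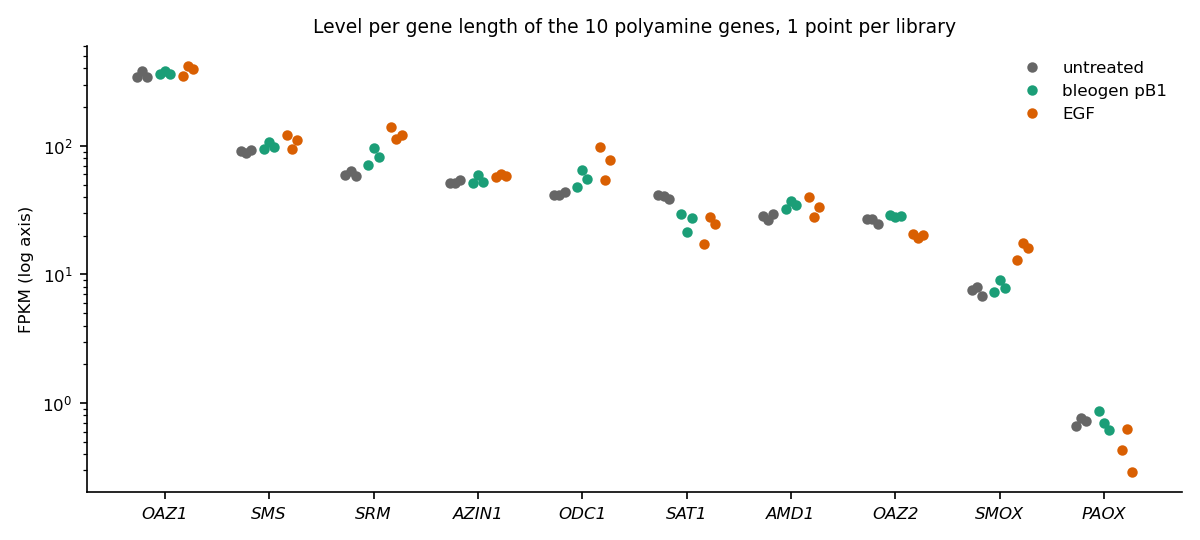
Level of each gene in FPKM (log axis) in the 9 libraries, 1 point per library, with untreated in grey, bleogen pB1 in green and EGF in orange, ordered by the untreated mean. OAZ1 lies above all other genes in every library and PAOX stays under 1 FPKM, while the 3 groups do not overlap for SRM and OAZ2.

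With EGF 3 members rose and 1 fell. A gene was called when the edgeR quasi-likelihood test over all 9 libraries gave a Benjamini-Hochberg adjusted p of at most 0.05, over all genes tested, and the log2 fold change was at least 0.5 in size. ODC1, SRM and SMOX rose with EGF and SAT1 fell. In the same comparison 15.1% of all genes tested were called higher and 21.8% lower, so 3 and 1 of 10 stand against a broad response. By the adjusted p alone, 9 of the 10 members passed, 7 higher and 2 lower, where 66.1% of all genes did. The median log2 fold change of the members was 0.28, against -0.01 for all genes, and the median size was 0.48 against 0.39. In bulk RNA fewer cells of a kind and less RNA per cell cannot be told apart.

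SAT1 fell with bleogen pB1, and no other member was called. SRM passed the adjusted p alone, so that 2 of 10 members passed it, against 4.11% of all genes. That share rests on 509 genes, which became 1549 without bleogen pB1 replicate 1 and 140 to 213 without any 1 of the 5 other libraries. Over all genes, 0.218% were called higher and 1.26% lower. The median log2 fold change of the members was 0.10, against -0.001 for all genes, and its median size was 0.11 against 0.12. Both comparisons use the same untreated libraries, so their values stand side by side and are not independent of each other.

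**Figure D2:**
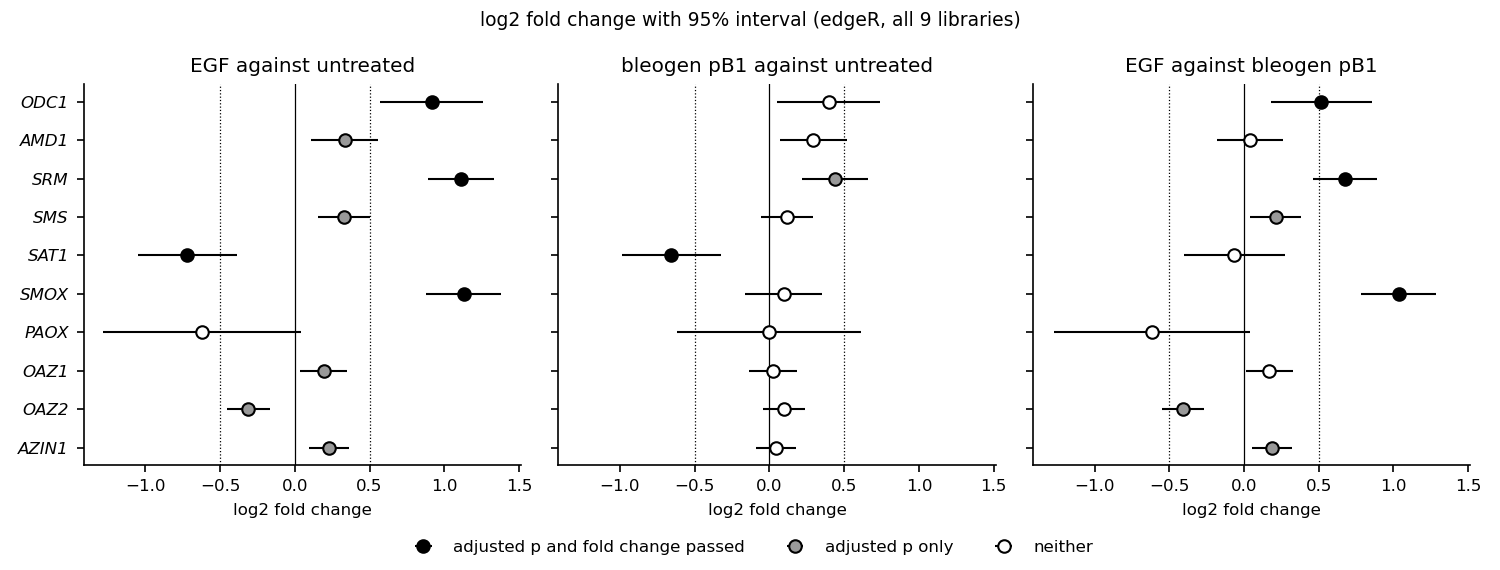
log2 fold change of each gene with its 95% interval in the 3 comparisons, from 1 edgeR fit over all 9 libraries, with dotted lines at 0.5 in either direction. Filled points (called) are ODC1, SRM, SAT1 and SMOX for EGF, SAT1 alone for bleogen pB1, and ODC1, SRM and SMOX for EGF against bleogen pB1.

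Among the synthesis genes, ODC1 had 85.0, 85.5 and 89.8 CPM in untreated replicates 1, 2 and 3. With EGF it had 208, 117 and 165 CPM, and with bleogen pB1 99.2, 131 and 113 CPM. All treated libraries lay above all untreated ones, and the EGF libraries were spread widely, with replicate 2 below bleogen pB1 replicate 2. The log2 fold change was 0.91 ± 0.159 (SE) with EGF (adjusted p = 0.000233, edgeR), a ratio of means of 1.89. With bleogen pB1 it was 0.40 (95% interval 0.05 to 0.74, adjusted p = 0.164), which did not pass, while a fit on the 6 libraries compared gave 0.39 (adjusted p = 0.0243).

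SRM, which makes spermidine, had 70.9, 76.2 and 68.4 CPM in untreated cells. It had 174, 141 and 151 CPM with EGF and 83.9, 112 and 95.5 CPM with bleogen pB1. The 3 groups did not overlap, with untreated cells lowest and EGF highest. The log2 fold change with EGF was 1.11 ± 0.102 (adjusted p = 1.18e-06), a ratio of means of 2.16. With bleogen pB1 it was 0.44 ± 0.102 (adjusted p = 0.0341), below the limit of 0.5, and the adjusted p was 0.0780 to 0.157 without any 1 of the libraries except bleogen pB1 replicate 1, without which SRM was called (0.53, adjusted p = 0.00568).

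AMD1 (chromosome 6, 110874770 to 110898879, plus strand), which supplies the aminopropyl donor, had 94.1, 89.4 and 97.1 CPM untreated, 140, 98.0 and 116 CPM with EGF, and 107, 123 and 113 CPM with bleogen pB1. Each treated group lay above the untreated one, but EGF replicate 2 exceeded the highest untreated library by less than 1 CPM. The log2 fold change was 0.33 with EGF (adjusted p = 0.0121) and 0.29 with bleogen pB1 (95% interval 0.07 to 0.52, adjusted p = 0.119), neither of which was called. The EGF value missed the adjusted p without untreated replicate 2 or EGF replicate 1 (0.0507 in both). The bleogen pB1 value passed it in a fit on the 6 libraries compared (0.29, adjusted p = 0.0248).

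SMS (X chromosome, 21940709 to 21994837, plus strand), which makes spermine, had 161, 159 and 164 CPM untreated, 226, 177 and 206 CPM with EGF, and 168, 187 and 171 CPM with bleogen pB1. The treated libraries were again all higher than the untreated ones, by a smaller proportion than for SRM. Its log2 fold change of 0.33 ± 0.080 with EGF (adjusted p = 0.00277) was under the fold limit, and that with bleogen pB1 was 0.12 (95% interval -0.06 to 0.29, adjusted p = 0.419). SRM and SMS therefore stood in a different proportion in each group. Their FPKM ratio was 0.666 ± 0.0475 (SD, n = 3) untreated, 0.830 ± 0.0747 with bleogen pB1 and 1.15 ± 0.0482 with EGF, with no overlap between groups.

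Among the catabolic genes, SAT1 had 41.7, 41.4 and 38.6 CPM in untreated cells. It had 18.1, 29.8 and 26.0 CPM with EGF and 29.1, 21.1 and 27.2 CPM with bleogen pB1. Every treated library was lower than every untreated one, and the treated groups overlapped. SAT1 fell by 0.72 ± 0.153 on the log2 scale with EGF (adjusted p = 0.00106) and by 0.66 ± 0.152 with bleogen pB1 (adjusted p = 0.0330), ratios of means of 0.607 and 0.635.

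The SAT1 call with bleogen pB1 rested on a narrow margin. It held with bleogen pB1 replicate 1 left out (adjusted p = 0.0151) and was lost without each of the 5 other libraries of the comparison. The adjusted p was 0.149 without untreated replicate 1, 0.116 without untreated replicate 2 and 0.0779 without untreated replicate 3. It was 0.142 without bleogen pB1 replicate 2 and 0.115 without bleogen pB1 replicate 3, and the log2 fold change over all 6 omissions was -0.75 to -0.53. With EGF the SAT1 call held in all 6 omissions (-0.87 to -0.54).

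SMOX (chromosome 20, 4120980 to 4187747, plus strand), which oxidizes spermine, had 16.0, 16.8 and 14.3 CPM in untreated cells. It had 29.1, 38.5 and 35.4 CPM with EGF and 15.1, 18.7 and 16.5 CPM with bleogen pB1. The EGF libraries lay above all others, and the untreated and bleogen pB1 libraries overlapped. SMOX rose by 1.13 ± 0.116 with EGF (adjusted p = 3.20e-06), a ratio of means of 2.19. With bleogen pB1 its log2 fold change was 0.10 (95% interval -0.16 to 0.36, adjusted p = 0.679). SAT1 and SMOX both act on spermine, and with EGF SAT1 fell while SMOX rose. The FPKM ratio of SAT1 to SMOX was 5.47 ± 0.283 untreated, 3.32 ± 0.852 with bleogen pB1 and 1.49 ± 0.146 with EGF.

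PAOX (chromosome 10, 133379261 to 133391694, plus strand), which oxidizes acetylated polyamines, had 1.16, 1.38 and 1.29 CPM untreated, 0.800, 1.16 and 0.530 CPM with EGF, and 1.53, 1.21 and 1.08 CPM with bleogen pB1. The groups overlapped. The log2 fold change was -0.62 with EGF (95% interval -1.28 to 0.04, adjusted p = 0.0888) and -0.00 with bleogen pB1 (-0.62 to 0.61, adjusted p = 0.995). At 11 to 32 counts per library, a change of this size was not separable from the spread, and single libraries moved it. PAOX was called without EGF replicate 2 (-0.93, adjusted p = 0.0261), and its log2 fold change was -0.38 without EGF replicate 3 (adjusted p = 0.317).

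The antizyme genes differed from each other. OAZ1 (chromosome 19, 2269509 to 2273490, plus strand) had 379, 427 and 382 CPM untreated, 408, 490 and 459 CPM with EGF, and 397, 417 and 393 CPM with bleogen pB1. The groups overlapped, with a log2 fold change of 0.19 with EGF (95% interval 0.03 to 0.35, adjusted p = 0.0329) and 0.02 with bleogen pB1 (-0.13 to 0.18, adjusted p = 0.885). The EGF value missed the adjusted p without untreated replicate 1 (0.124), untreated replicate 3 (0.107), EGF replicate 2 (0.117) or EGF replicate 3 (0.0859). OAZ1 overlaps JSRP1 on the opposite strand, and whether the counting used strand is not stated.

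OAZ2 (chromosome 15, 64687573 to 64703281, minus strand) had 49.8, 50.2 and 45.6 CPM untreated, 40.4, 37.5 and 39.4 CPM with EGF, and 53.0, 50.8 and 51.9 CPM with bleogen pB1. The EGF libraries were the lowest and the bleogen pB1 libraries the highest, and no groups overlapped. The log2 fold change with EGF was -0.31 ± 0.066 (adjusted p = 0.00102), under the fold limit, and with bleogen pB1 0.10 (95% interval -0.04 to 0.24, adjusted p = 0.399). The FPKM ratio of OAZ1 to OAZ2 was 13.7 ± 0.796 untreated, 13.0 ± 0.676 with bleogen pB1 and 19.3 ± 2.42 with EGF.

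AZIN1, which protects ODC1 by binding antizyme, had 213, 215 and 224 CPM untreated, 250, 262 and 253 CPM with EGF, and 213, 244 and 215 CPM with bleogen pB1. The EGF libraries lay above the rest, while the untreated and bleogen pB1 libraries overlapped. Its log2 fold change was 0.23 ± 0.061 with EGF (adjusted p = 0.00504), under the fold limit, and 0.04 with bleogen pB1 (95% interval -0.09 to 0.17, adjusted p = 0.731).

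**Figure D3:**
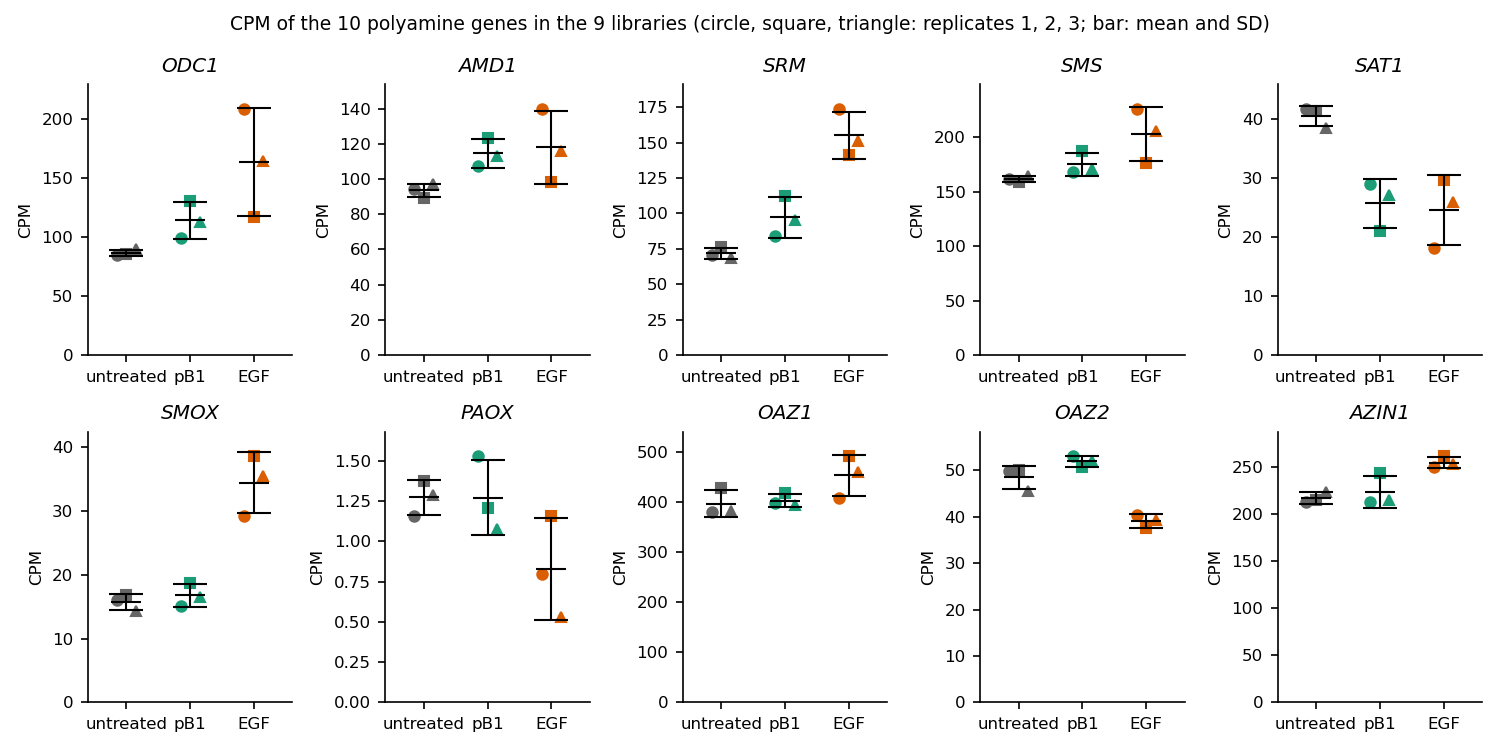
CPM of each gene by group, 1 point per library (circle, square and triangle for replicates 1, 2 and 3), with the mean and SD as bars and each axis starting at 0. With EGF, replicate 1 (circle) is highest and replicate 2 (square) lowest for ODC1, AMD1, SRM and SMS, and the reverse holds for SAT1.

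Groups were also compared without a model, by whether their CPM overlapped. With EGF the libraries of 8 members lay all above (6) or all below (2) the untreated ones, where 70.4% of all genes tested were separated. With bleogen pB1 6 members were separated, where 29.1% of all genes were. ODC1, AMD1, SRM, SMS and OAZ2 lay above and SAT1 below. For each such gene the two-sided exact permutation test of 3 against 3 libraries gave p = 0.1, the smallest value this design allows.

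EGF was then compared directly with bleogen pB1. SMOX, SRM and ODC1 were called higher with EGF and none lower, against 10.8% and 18% of all genes. By the adjusted p alone 6 members passed, 5 higher and 1 lower, against 58.2%. The log2 difference was 1.04 ± 0.115 for SMOX (adjusted p = 9.32e-06), 0.68 for SRM (95% interval 0.46 to 0.89, 9.67e-05) and 0.52 ± 0.157 for ODC1 (0.0127). The ODC1 call was lost without EGF replicate 1 (0.31, adjusted p = 0.0522) or bleogen pB1 replicate 1 (0.42, adjusted p = 0.0558). The members' median was 0.18, against -0.01 for all genes.

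OAZ2 was lower with EGF than with bleogen pB1 by 0.41 on the log2 scale (95% interval -0.55 to -0.27, adjusted p = 0.000174), and SMS (0.21, 0.0366) and AZIN1 (0.19, 0.0187) were higher, all under the fold limit. SMS missed the adjusted p without EGF replicate 1 or 3 or bleogen pB1 replicate 1 or 3 (0.0956 to 0.147), and AZIN1 without bleogen pB1 replicate 1 (0.0708) or 3 (0.0808). For SAT1 the difference was -0.06 (95% interval -0.40 to 0.27, adjusted p = 0.745) and for AMD1 0.04 (-0.18 to 0.26, 0.750). Both intervals include 0 and lie inside the fold limit of 0.5 in either direction, so a difference smaller than that limit is not excluded. PAOX (-0.62, -1.27 to 0.04, 0.0987) and OAZ1 (0.17, 0.01 to 0.33, 0.0626) did not pass either, but PAOX was called lower without EGF replicate 2 (-0.92, adjusted p = 0.0312) and was at -0.37 without EGF replicate 3 (0.344). The libraries of SRM, SMOX, AZIN1 and OAZ2 were separated between the ligands, 4 of 10 members against 62.4% of all genes.

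For single members the replicates of a treatment were not equally far from the untreated cells, and their order was not the same for all members. With EGF, replicate 1 was farthest and replicate 2 nearest for ODC1, AMD1, SRM, SMS and SAT1. In contrast, replicate 2 was farthest and replicate 1 nearest for SMOX, OAZ1, OAZ2 and AZIN1. For PAOX, EGF replicate 3 was farthest and replicate 2 nearest. With bleogen pB1, replicate 2 was farthest for ODC1, AMD1, SRM, SMS, SAT1, SMOX, OAZ1 and AZIN1, and replicate 1 for OAZ2 and PAOX. Over all genes tested, the median size of the log2 difference from the untreated mean was 0.38, 0.41 and 0.39 for EGF replicates 1, 2 and 3, and 0.09, 0.19 and 0.13 for bleogen pB1 replicates 1, 2 and 3. The part of this spread in the results was not tested. The FPKM ratio of ODC1 to SAT1 varied with the replicate and was 0.992, 1.01 and 1.14 in untreated cells, 1.63, 3.01 and 2.00 with bleogen pB1, and 5.65, 1.93 and 3.14 with EGF.

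The genes most like ODC1 and SAT1 across the 9 libraries were found by Pearson's r of log2 CPM among 10867 genes with a mean of at least 50 counts, as a description in which all genes share the same libraries. For ODC1 they were NUS1 (r = 0.996), a subunit of the dolichol-synthesizing enzyme, CCT7 (0.995), a subunit of the cytosolic chaperonin, and GNL3 (0.992), the nucleolar protein nucleostemin. Each had the ODC1 order of the EGF replicates, for example 443, 318 and 388 CPM for CCT7. These genes were chosen by r over the same libraries, so the shared order is no separate result. In all, 597 genes had r above 0.9 with ODC1. For SAT1 they were CCNG2 (0.980), an atypical cyclin linked to growth arrest, SREBF2 (0.980), a regulator of sterol synthesis, and KDF1 (0.974), a keratinocyte differentiation factor. CCNG2 had 33.4, 51.3 and 45.7 CPM with EGF and 59.0, 59.0 and 60.7 CPM untreated, and 117 genes had r above 0.9 with SAT1.

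The genes around the pathway were taken from 5 lists of 33 genes, of which 27 were tested. With EGF 7 rose and 3 fell, where 15.1% and 21.8% of all genes tested did. With bleogen pB1 none was called in either direction, where 0.218% and 1.26% of all genes were. With EGF against bleogen pB1 3 were higher and 3 lower, where 10.8% and 18% of all genes were. The median log2 fold changes were 0.24, 0.07 and 0.16, against -0.01, -0.001 and -0.01 for all genes. With bleogen pB1 OAT and MAT2B, chosen after their values were seen, passed the adjusted p alone (0.0134 and 0.0358), where 4.11% of all genes did. Whether OAT and MAT2B pass with a library left out was not examined. OAT, which links ornithine to glutamate metabolism, had a log2 fold change of -0.34, and MAT2B, the regulatory subunit of S-adenosylmethionine synthesis, one of -0.22.

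Polyamines feed directly into the hypusine modification of the translation factor eIF5A, for which spermidine is the donor. Of its 4 genes, 3 rose with EGF, namely EIF5A, EIF5A2 and DOHH, the second enzyme of the modification, where 15.1% of all genes tested rose. EIF5A was at 669 ± 23.0 CPM untreated, 1314 ± 56.8 with EGF and 794 ± 67.7 with bleogen pB1. Its log2 fold change was 0.97 with EGF (adjusted p = 1.36e-07) and 0.25 with bleogen pB1 (adjusted p = 0.0624). EIF5A2 rose from 17.4 ± 1.44 to 30.8 ± 0.421 CPM with EGF (0.83, adjusted p = 2.11e-05). The median log2 fold change of this list was 0.74 with EGF and 0.16 with bleogen pB1, against -0.01 and -0.001 for all genes.

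Of the 10 tested genes of the methionine cycle and methionine salvage, MTAP and AHCY rose with EGF and ADI1 fell. Of all genes tested, 15.1% were called higher and 21.8% lower with EGF, so these counts stand near the broad response. MTAP, which recycles the methylthioadenosine that SRM and SMS release, was at 70.2 ± 2.57 CPM untreated and 132 ± 5.14 with EGF (0.91, adjusted p = 8.28e-07). With bleogen pB1 it was at 81.3 ± 10.0 CPM (0.21, adjusted p = 0.140). AHCY, which removes S-adenosylhomocysteine, went from 274 ± 7.58 to 403 ± 16.5 CPM with EGF (0.56, adjusted p = 1.58e-05). The list's median was 0.24 with EGF.

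Of the 6 tested genes on the list of ornithine and arginine supply, ARG2 rose and ASS1 and AZIN2 fell with EGF. Of all genes tested, 15.1% were called higher and 21.8% lower in this comparison. AZIN2 is by name an antizyme inhibitor, like AZIN1, and its level was low. It was at 2.28 ± 0.473 CPM untreated and 0.843 ± 0.322 with EGF (-1.43, adjusted p = 0.00145). ASS1, the argininosuccinate synthase of arginine synthesis, was at 29.97 ± 1.92 CPM untreated, 30.04 ± 1.82 with bleogen pB1 and 13.7 ± 0.804 with EGF, a log2 fold change of -1.13 (adjusted p = 2.78e-07). ALDH18A1, the first enzyme from glutamate toward ornithine and proline, was at 103 ± 3.97 untreated and 128 ± 3.36 CPM with EGF (0.32, adjusted p = 0.000781), under the fold limit. Of the 5 tested transport genes 1 rose with EGF and none fell, beside the same shares of all genes. This was ATP13A3, a transporter of polyamines from endosomes, which rose from 141 ± 9.77 to 223 ± 14.5 CPM with EGF (0.66, adjusted p = 9.42e-06). SLC3A2, a heavy chain of amino acid transporters, was at 321 ± 24.2 and 405 ± 21.3 CPM (0.34, adjusted p = 0.00377). SAT2 (-0.17, adjusted p = 0.166) and OAZ3 (0.53, adjusted p = 0.110), the tested acetyltransferase and antizyme relatives, did not pass with EGF.

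**Figure D4:**
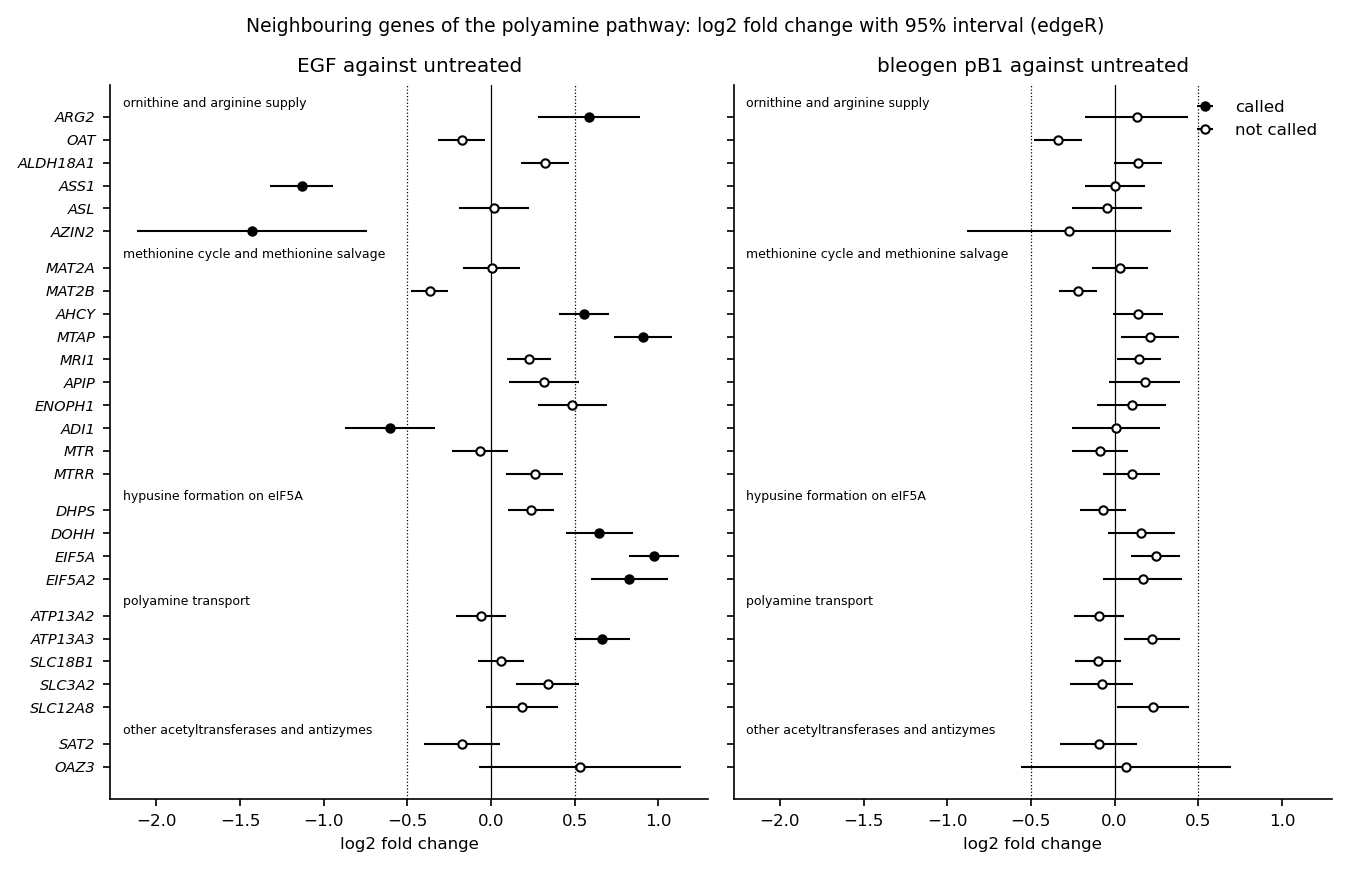
log2 fold change with 95% interval (edgeR) of the 27 tested neighbouring genes of the pathway, by list, with EGF (left) and bleogen pB1 (right) against untreated, where filled points are called and dotted lines mark 0.5 in either direction. With EGF 10 points are filled, 3 of them on the hypusine list, and with bleogen pB1 none is.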

How the data were processed

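RNA from 9 HaCaT libraries was sequenced by BGI and mapped to GRCh38.p12, per the labels and the study's methods, and the tool that counted reads is not given in the sources used here. Expected counts, as deposited, are estimated reads per gene with no scaling for depth. The FPKM values deposited by the authors divide these by library size and by a gene length set per library, which varied by at most 2.17% for a member. Genes absent from a library counted as 0.

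Expected counts were rounded and fitted with edgeR 4.0.16 in R 4.3.3 (filterByExpr, TMM, glmQLFit, glmQLFTest), with all 9 libraries in 1 fit and Benjamini-Hochberg adjustment over 12394 genes. The limits on adjusted p (0.05) and log2 fold change (0.5) are those of the study, which used DESeq2. CPM use the TMM-scaled library size. The script was tested on simulated data. DESeq2 1.42.0 and limma 3.58.1 served as alternatives. Groups came from the deposited labels.

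The members and lists were chosen with earlier results of these data known. The rule for naming neighbours took any called with bleogen pB1 (there were none) and the 2 of lowest adjusted p under EGF in each list. OAT and MAT2B were named outside it, and genes called with EGF were also named to show which ones a count held. Labels and methods name different RNA kits and sequencers.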

Additional observations from a re-analysis of the deposited data

How the results depend on the processing

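Each of the 3 member counts was recomputed with DESeq2, other scalings, other count filters, limma on FPKM, other thresholds, a replicate block and each library left out. With EGF, ODC1, SRM, SMOX and SAT1 were called in all 17 refits that kept the threshold, and the count of 4 became 3 with glmTreat, which lost SAT1, 9 with the adjusted p alone, and 5 without EGF replicate 2, which added PAOX. The adjusted p reached 0.0960 for AMD1, 0.313 for OAZ1 and 0.0773 for AZIN1 among these refits. With bleogen pB1 the count of 1 became 0 with limma on log2(FPKM + 0.1), limma on unfiltered log2(FPKM + 1), glmTreat and the replicate block, 2 with the adjusted p alone, and 0 to 2 with a library left out. With EGF against bleogen pB1 the count of 3 became 1 with glmTreat, which lost SRM (adjusted p = 0.0797) and ODC1 (0.735), 6 with the adjusted p alone, and 4 without EGF replicate 2, which added PAOX. Outside the threshold changes, SRM and SMOX kept their calls in all 17 refits there and ODC1 in 9, so that the count was 2 in the refits without it. The cause was not tested.

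Directions turned for 5 member values, none of which had passed the adjusted p. For PAOX with bleogen pB1 the log2 fold change was 0.009365 with no scaling and 0.006287 with limma on unfiltered FPKM, and -0.156 to 0.0995 with a library left out. For AMD1 with EGF against bleogen pB1 it was -0.0466 with upper-quartile factors, -0.0309 with no scaling, -0.0503 with limma on log2(FPKM + 1) with or without a filter, -0.0519 with limma on log2(FPKM + 0.1), and -0.0939 to 0.168 with a library left out. With a library left out it was -0.00699 to 0.0809 for OAZ1 and -0.0271 to 0.0772 for AZIN1 with bleogen pB1, and -0.210 to 0.118 for SAT1 with EGF against bleogen pB1.

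Upper-quartile factors moved the median of all genes with EGF from -0.01 to -0.12 and the calls over all genes from 1875 higher and 2703 lower to 1396 and 3221. Calls over all genes with bleogen pB1 went from 183 to 436 without bleogen pB1 replicate 1, 109 without replicate 2, 102 without replicate 3 or untreated replicate 1, 99 with unfiltered limma and 5 with glmTreat. With glmTreat they went from 4578 to 2919 with EGF and from 3564 to 2026 between the ligands. Whether replicate numbers pair the samples was not settled, since each group has only 3 libraries. Same-numbered libraries deviated together with a mean r of 0.10 (untreated and bleogen pB1), 0.03 (untreated and EGF) and 0.04 (EGF and bleogen pB1). For different-numbered libraries the mean r was -0.05, -0.01 and -0.02 in the same order. With the number as a replicate block SAT1 with bleogen pB1 had an adjusted p of 0.0503 and ODC1 with EGF against bleogen pB1 a log2 fold change of 0.4984, both no longer called, and no other member's call changed. PAOX, at under 1 FPKM, was not tested where FPKM was filtered, and its depth limits what can be said of it.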
